A study of Drosophila melanogaster with 4 samples.

Results

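Long stretches of the fly genome that carried no called enrichment for H3K9acS10P in adult heads are described here. H3K9acS10P is histone H3 acetylated at lysine 9 and phosphorylated at serine 10 on the same tail. Enriched regions (clusters) of both ChIP replicates were joined on the chromosome arms 2L, 3L, 3R and X. Every gap of at least 50 kb between neighbouring joined clusters was taken, which gave 387 long gaps among 5367 gaps of any length (7.21%). The gaps were chosen by the replicates' own clusters, so their lengths and numbers are given as a description and were not tested.

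Acetylated lysine 9 of histone H3 is a mark of active promoters. Serine 10 is phosphorylated in interphase by the kinase JIL-1 in flies, on open, gene-rich chromatin. The homeotic (Hox) genes, which give the body segments their identity, sit in a pair of complexes on 3R that are textbook targets of the Polycomb group proteins. These proteins keep homeotic genes silent outside their own segments. Genes of the Antennapedia complex pattern the head and the anterior thorax, and genes of the bithorax complex pattern the posterior thorax and the abdomen.

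Head nuclei came from wild-type flies of the Oregon-R strain (official name Oregon-R-modENCODE), at a stage given as mixed adult, with no treatment named in the labels. The ChIP group had 2 samples, immunoprecipitated with an antibody lot described as new, and the input group had 2 samples, 1 for each ChIP sample. The labels do not tell if replicate flies were collected separately, and differences between replicates may therefore be only technical. Heads hold many cell types, and a mark carried by few cells cannot be told apart from a weak mark in all of them. Sequencing depth is unknown, so a gap means that no cluster was called there, not that the mark was shown to be absent. On the 4 arms, replicate 1 had 4990 clusters, replicate 2 had 4997, and the authors' list of combined replicates had 7012. Coordinates refer to FlyBase release r5. A cluster's score is the value the authors gave it, in a unit that the files do not name.

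Long gaps took up 37.1 Mb, or 37.9% of the 97.9 Mb of the 4 arms. The median long gap measured 80.6 kb, with an interquartile range of 60.5 to 112 kb, where the median of all gaps was 4.58 kb. At least 100 kb was reached by 129 long gaps, at least 200 kb by 17 and at least 300 kb by 5. Near the limit of 50 kb, lengths ran on without a break. The 5 shortest long gaps measured 50.0 to 50.5 kb. They lay on 2L at 6203262 to 6253286, on 3L at 7376605 to 7426709, and on 3R at 14320082 to 14370348, at 6534904 to 6585209 and at 21625989 to 21676526. The 5 longest gaps just under the limit measured 49906 to 49946 bp and lay on 3L at 17046086 to 17096031, 21764421 to 21814346 and 13607734 to 13657639, on 2L at 6128278 to 6178191 and on 3R at 23902130 to 23952041.

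**Figure D1:**
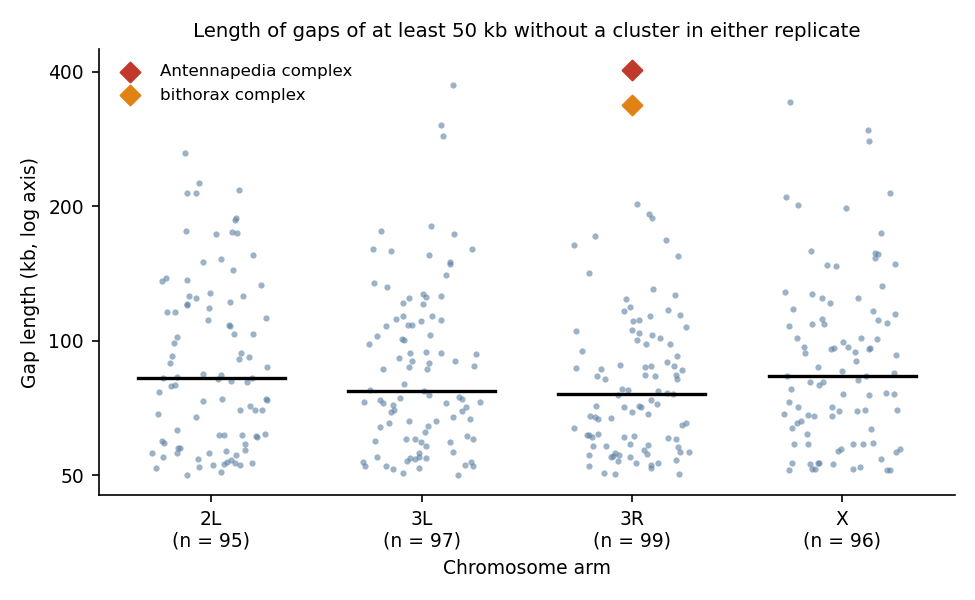
Length of each long gap (kb, log axis) by chromosome arm, 1 point per gap; black lines are the medians of the arms and diamonds the gaps over the homeotic complexes. Medians lie between 75.9 and 83.3 kb in the 4 arms, and both diamonds, at 404 and 337 kb, stand above all other points on 3R.

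The longest gap of all lay over the Antennapedia complex, on 3R from 2486687 to 2891133, with 404447 bp. The gap over the bithorax complex, on 3R from 12478826 to 12816189, was the fourth longest, with 337364 bp. The other 385 long gaps had a median of 79.9 kb and reached 373 kb at most. Which gaps hold the complexes was set by a known position inside each complex on release r5, chosen with these lists in view. No r5 gene annotation was used here to place single genes at the edges. Whether a gap spans all of its complex was therefore not checked. In the RefSeq gene table of release 6, used only for names and order, the run from lab to Antp holds 43 genes, 19 of them protein-coding. It starts with lab, which patterns the embryonic head, and a row of cuticle protein genes (the Ccp84A genes). It goes on through pb, a gene of the mouthparts, zen2, zen and bcd (of these, zen and bcd act in the early embryo), Dfd, which patterns head segments, and Scr, which acts in the head and the anterior thorax. The run ends with the segmentation gene ftz and with Antp, which specifies thoracic identity. All 9 listed genes of this complex and all 3 of the bithorax complex (Ubx, abd-A and Abd-B, which act from the posterior thorax to the end of the abdomen) were found in that table. The run from Ubx to Abd-B holds 16 genes, 6 of them protein-coding.

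Both replicates placed the edges of the homeotic gaps at nearly the same bases. Over the Antennapedia complex the gap measured 404447 bp in replicate 1 alone and 404904 bp in replicate 2 alone. The replicates differed by 55 bp at the left edge and by 402 bp at the right edge. Over the bithorax complex the gap measured 337478 bp in replicate 1 alone and 337568 bp in replicate 2 alone, with edges 204 and 114 bp apart. By construction, neither replicate listed a cluster inside either gap. For the other 385 long gaps, the larger of both edge differences had a median of 1328 bp and an upper quartile of 23389 bp. A cluster found in 1 replicate only ends some of them. The value was smaller than over the Antennapedia complex in 139 of the 385 and smaller than over the bithorax complex in 97. In the 214 long gaps with both edges in both replicates, single edges lay a median of 100 bp apart, with an upper quartile of 277.5 bp.

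Clusters near these gaps were unevenly spread. Within 25 kb to the left of the Antennapedia gap each replicate had 2 clusters, scoring 0.84 and 1.19 in replicate 1 and 0.74 and 1.09 in replicate 2. Within 25 kb to the right, replicate 1 had 4 clusters scoring 1.04 to 1.16, and replicate 2 had 5 scoring 0.76 to 1.22. The bithorax gap had 5 clusters on the left and 3 on the right in each replicate. These scored 0.85 to 1.38 and 0.90 to 1.11 in replicate 1, and 0.74 to 1.17 and 0.51 to 1.15 in replicate 2. All clusters on the 4 arms had a median score of 0.82 (replicate 1) and 0.80 (replicate 2). Averaged over both sides and both replicates, clusters covered 50.5% of the 25-kb flanks of the Antennapedia gap and 40.7% of those of the bithorax gap. In the other long gaps the median was 25.9%, with an interquartile range of 15.0 to 36.2%. The Antennapedia value averaged unequal sides, with 28.4% and 27.7% covered on the left in replicates 1 and 2, and 72.1% and 73.6% on the right. For the bithorax gap the left side was covered to 54.9% and 46.5%, and the right side to 31.1% and 30.4%. Of those 385 gaps, 29 had better covered flanks than the Antennapedia gap and 65 than the bithorax gap.

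**Figure D2:**
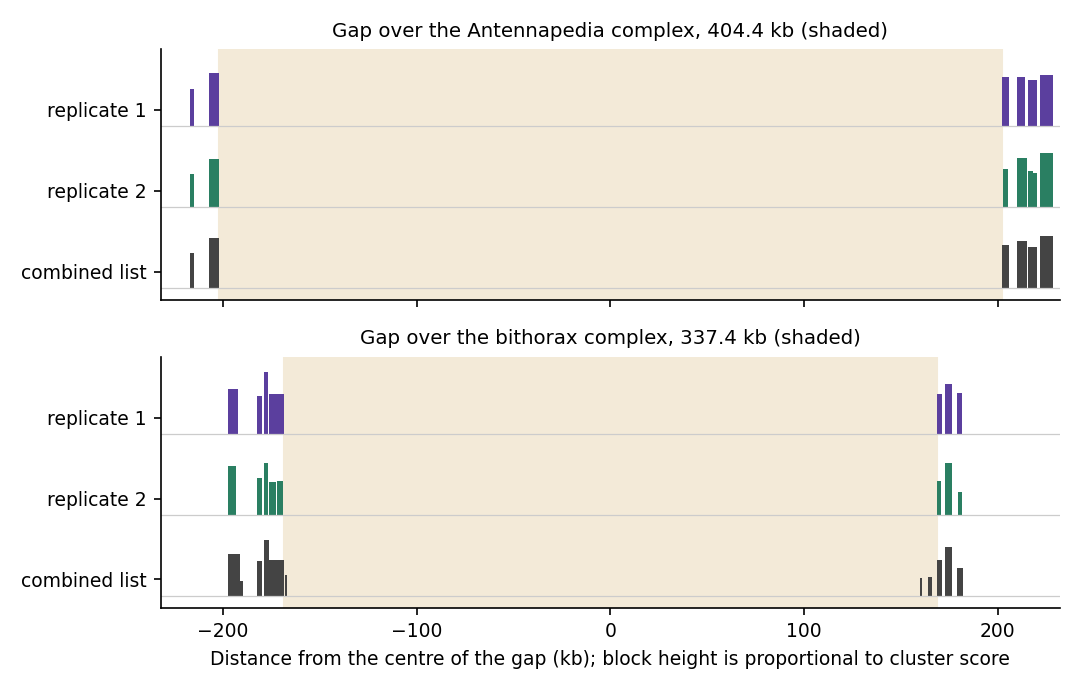
Clusters within 25 kb of the gaps over the Antennapedia complex (top) and the bithorax complex (bottom), by distance from the centre of the gap in kb; blocks are clusters of replicate 1, replicate 2 and the combined list, with heights proportional to their scores, and shading marks the gap. By construction both replicates are empty across 404 kb and 337 kb. The combined list adds 0 whole clusters to the upper gap and 3 to the lower one, all within 8 kb of an edge.

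The homeotic gaps kept their edges when only stronger clusters were allowed to end a gap. With clusters at or above the median score of their list, the Antennapedia gap stayed at 404 kb and the bithorax gap at 337 kb. Under the same setting 98 of the 387 long gaps (25.3%) grew by at most 1 kb, against 29.6% of all gaps. The median long gap extended to 137 kb, and 154 grew by more than 50 kb. When only clusters present in both replicates could end a gap, both homeotic gaps again kept their lengths, as did, within 1 kb, 214 of the 387 long gaps (55.3%), against 57.7% of all gaps. In both settings the share among long gaps lay near that among all gaps. The Antennapedia gap was the longest in neither setting. Other long gaps grew to as much as 569 kb with clusters at or above the median score, and 461 kb with clusters present in both replicates.

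The other members of the 10 longest gaps fell into a group near the centromeres and a group inside the arms. On 3L, the arm's longest gap ran from 23334438 to 23707171 (373 kb), and gaps of 304 and 288 kb lay at 24225818 to 24529364 and at 23732801 to 24020566. On X, the longest ran from 21502350 to 21844934 (343 kb), followed by 297 kb at 20396982 to 20693579. These 5 lay within 3 Mb of the centromere end of their arm, as did the Antennapedia gap, at 2.49 Mb. Farther out were the bithorax gap, at 12.5 Mb from the centromere end of 3R, a gap of 280.5 kb on X at 7221244 to 7501742, and gaps of 262 kb at 14689869 to 14952272 and of 226 kb at 15272789 to 15498410 on 2L. Of the 17 gaps of at least 200 kb, 9 lay within 3 Mb of a centromere end, a zone of 12.3% of the 4 arms, whereas 45 of all 387 long gaps did (11.6%). The zone of 3 Mb was not planned, as the plan named only the first and last Mb of each arm.

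Long gaps filled most of the centromere-proximal Mb of 3 arms. They took up 91.1% of it on 3L, 80.6% on X and 77.6% on 2L, against 36.4%, 41.0% and 39.7% of those arms outside the Mb at either end. On 3R the centromere-proximal Mb was in long gaps to 8.37%, against 33.4% in the rest of the arm. In the telomere-proximal Mb the shares were 19.4% on 2L, 14.1% on 3L, 24.4% on 3R and 33.7% on X. Sequence near centromeres is rich in repeats; the share of it to which reads can be aligned uniquely is unknown, and its part in these gaps was not tested.

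Long gaps were nearly equal in number on the arms, with 96 on X, 95 on 2L, 97 on 3L and 99 on 3R. They occupied 42.5% of X, 40.5% of 2L, 37.7% of 3L and 32.1% of 3R. X was also the arm with the most enriched sequence: joined clusters covered 23.3% of X, against 16.2% of 2L, 16.6% of 3L and 18.7% of 3R. The median gap of any length was shorter on X (2.89 kb) than on 2L (5.48 kb), 3L (5.41 kb) and 3R (4.85 kb). X thus combined the shortest typical gap with the largest share in long gaps. Of the sequence of X outside clusters, 55.4% lay in long gaps, against 48.5% on 2L, 45.6% on 3L and 39.6% on 3R.

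The arms were also compared in each replicate alone. Gaps of at least 50 kb in a single replicate took up 46.7% ± 2.35 of X, 46.4% ± 0.49 of 2L, 42.2% ± 0.035 of 3L and 38.1% ± 3.39 of 3R (SD, n = 2 each). X and 2L did not differ beyond this spread, and in replicate 1 X (45.1%) lay below 2L (46.0%). As a share of the sequence outside clusters, X had 56.3% in replicate 1 and 60.7% in replicate 2. The same shares were 53.7 and 54.5% on 2L, 49.7 and 49.6% on 3L and 48.5 and 42.7% on 3R, so X exceeded the 3 autosomal arms in either replicate. X makes up 22.9% of the length of the 4 arms and held 25.7% of long-gap length. That share fell to 19.9% when only clusters at or above the median score ended a gap. No test was run on these differences between arms.

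**Figure D3:**
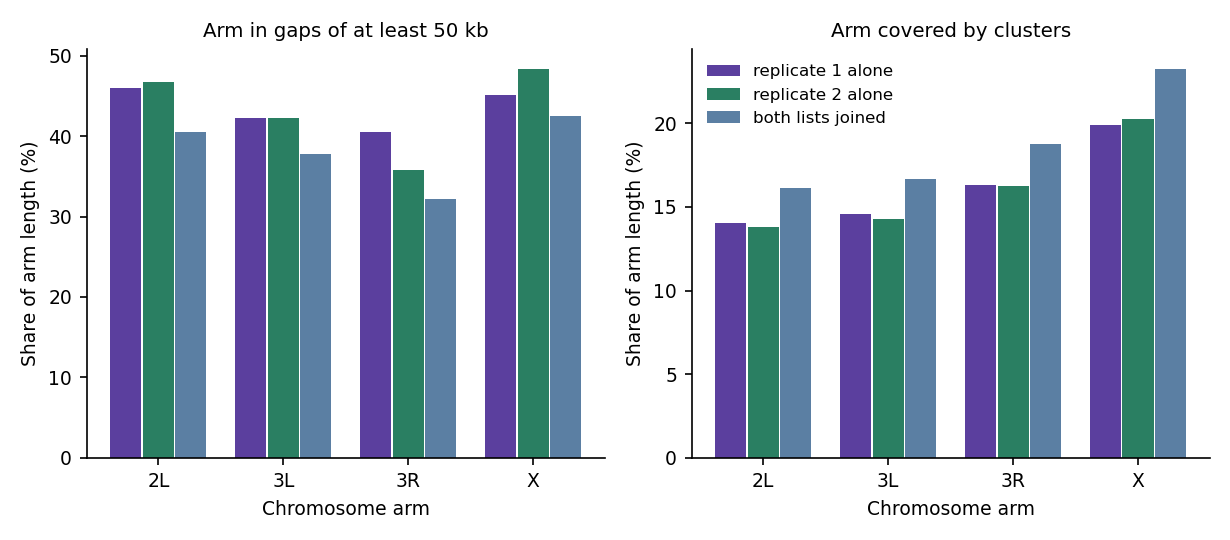
Share of each arm (%) in gaps of at least 50 kb (left) and covered by clusters (right), from replicate 1 alone, replicate 2 alone and both lists joined. X has the tallest bars for cluster coverage, at 19.9 to 23.3%, and at the same time 42.5 to 48.4% of its length in long gaps.

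A gap chosen in 1 replicate can be examined in the other, which the choice did not use. Replicate 1 alone had 430 gaps of at least 50 kb, together 42.4 Mb. Clusters of replicate 2 covered 1.04% of that sequence, against 16.1% of the 4 arms. Replicate 2 alone had 428 such gaps, together 41.9 Mb. Clusters of replicate 1 covered 0.911% of it, against 16.2% of the arms. By construction such a gap holds no cluster of its own replicate, so clusters found in both replicates can reach in only at the edges. The whole-arm shares include those clusters, so part of the contrast was fixed by the choice of gaps. Of the sequence in replicate 1's long gaps 88.5% lay in a long gap of replicate 2 too, and 89.4% in the reverse direction. The length limit of 30 kb or 100 kb moved the covered shares to between 0.586 and 1.27%.

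Most of these single-replicate gaps stayed whole in the other list. Clusters of replicate 2 without a partner in replicate 1 fell inside 136 of the 430 gaps (31.6%), against 11.1% of all gaps of replicate 1, which are mostly far shorter. In the reverse direction it was 129 of 428 (30.1%), against 11.5% of all gaps. There were 203 such clusters of replicate 2, or 4.79 per Mb of gap, against 7.05 clusters without a partner per Mb over the whole arms. Replicate 1 had 166, or 3.96 per Mb of gap, against 6.87 per Mb over the whole arms. By construction a cluster wholly inside such a gap has no partner, so the densities leave out clusters that have one. The clusters inside the gaps scored lower than all clusters of their list. For replicate 2 the median score was 0.61, against 0.80 for all its clusters, and the median width was 1607 bp. For replicate 1 the median score was 0.60, against 0.82, and the median width 1558.5 bp. Clusters without a partner outside long gaps were not measured, so these values are not shown to be particular to long gaps.

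Some of the longest single-replicate gaps were split in this way, and others were only trimmed at an end. In replicate 2 alone a gap of 461 kb, longer than the 405 kb over the Antennapedia complex in that list, ran on 3L from 24068427 to 24529449. A single 1542-bp cluster of replicate 1, with a score of 0.32, divided it at 24224276 to 24225817. In replicate 1 alone a gap of 397 kb on X, from 20396982 to 20793497, was divided by clusters of replicate 2 at 20693580 to 20694895 (score 0.76) and 20774372 to 20776364 (0.81). The next in replicate 1 were 361 kb on 2L (21759878 to 22120977), 335 kb on 3R (1834974 to 2170023), 264 kb on 2L (14689869 to 14954154) and 205 kb on X (14268642 to 14473933). Each held 1 cluster of replicate 2, with scores of 0.63, 0.65, 0.54 and 0.64 in that order. In the gap of 264 kb that cluster lay 0.054 kb from the right edge, so it trimmed the gap to 262 kb. In replicate 2 the next were 302 kb on X (22080909 to 22383157), 282 kb on X (7219481 to 7501742), 240.2 kb on X (12113195 to 12353406) and 236 kb on 3L (14293905 to 14529846). Each held 1 cluster of replicate 1, with scores of 0.72, 0.80, 0.59 and 0.44. In the gap of 282 kb it lay 0.276 kb from the left edge and left 280.5 kb, and in the gap of 240.2 kb it lay 24.4 kb from the left edge and left 214 kb.

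Joined clusters at the edges of long gaps lay close to other joined clusters in width, score and replication. Long gaps were bounded by 722 of them, and 534 (74.0%) held clusters of both replicates, against 74.7% of all 5371 joined clusters. Their highest scores had medians of 0.82 in replicate 1 and 0.83 in replicate 2, against 0.83 and 0.81 for those that bounded no long gap. Their median width was 2498.5 bp, against 2667 bp. Both edges rested on both replicates in 214 long gaps, 1 edge in 138 and neither edge in 35. In the 214, the replicates' edges lay a median of 100.0 bp apart, and 395 of 428 edges differed by at most 1000 bp.

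Some long gaps followed each other. Another long gap lay just beyond a single joined cluster for 99 of the 387 (25.6%), while 13.8% of all gaps had a long gap beside them. By arm these were 26 on X, 33 on 2L, 28 on 3L and 12 on 3R. The 52 joined clusters between a pair of long gaps had a median width of 2100 bp and median scores of 0.66 in replicate 1 and 0.69 in replicate 2. Of these 52, 32 held clusters of both replicates (61.5%, against 74.7% of all). Up to 3 long gaps stood in a row, in 5 places, chosen for this length after their values were seen. The widest was on 2L from 14495105 to 14952272, where 457 kb held only 4.51 kb of clusters.

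**Figure D4:**
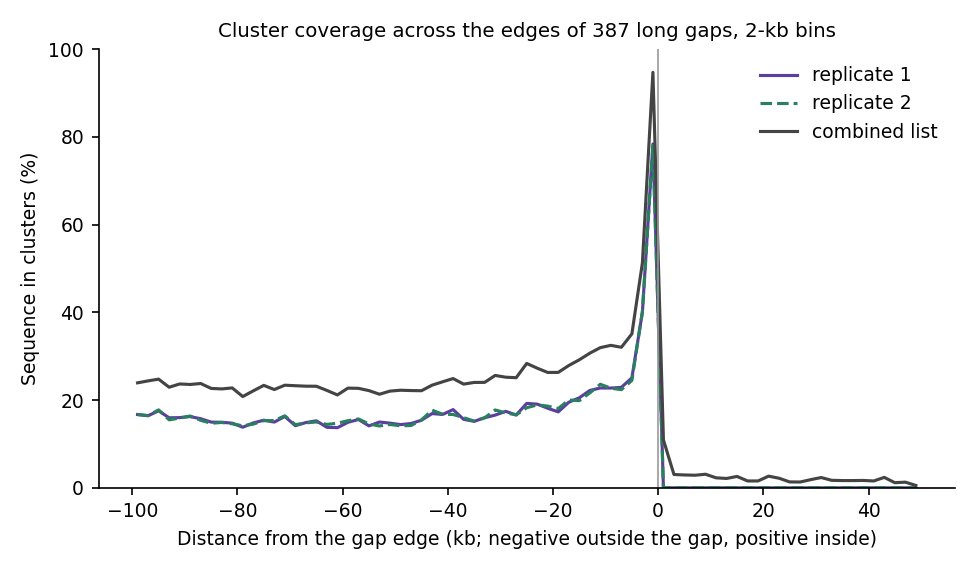
Share of sequence in clusters (%) by distance from the edges of the 387 long gaps in 2-kb bins, both edges averaged, for replicate 1, replicate 2 and the combined list. By construction the replicates are at 0 inside, and a joined cluster starts right outside each edge. Outside, coverage by the replicates is 78.0 to 78.4% in the first bin and 21.6 to 23.6% between 6 and 14 kb. The combined list is at 3.04% between 2 and 4 kb inside, against 94.7% in the first bin outside. Part of these contrasts was fixed by the choice of edges.

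The combined list, by its name a list of the same replicates combined, is more inclusive than either replicate list and was used to look for weaker enrichment inside the gaps. It was not taken as an independent measure, since by its name it rests on the same replicates, though how they were combined is not stated. It covered 2.27% of long-gap sequence, against 6.51% of gaps of 10 to 50 kb, 18.2% of gaps under 10 kb and 23.4% of the 4 arms. The arm share includes sequence under replicate clusters, which gaps exclude by construction, so part of that contrast was fixed by the choice of gaps. In shorter gaps more of the cover was combined clusters reaching past a replicate's edge. Combined clusters that lay wholly inside a gap and overlapped neither replicate covered 1.94% of long gaps. The same share was 4.94% in gaps of 10 to 50 kb and 5.50% in gaps under 10 kb. The whole combined list covered 3.89% (replicate 1) and 3.51% (replicate 2) of gaps of at least 50 kb taken from 1 replicate alone. In the long gaps of both replicates, combined clusters at or above the median score covered 0.465%. Of the 841 kb covered in the long gaps of both replicates, 120.3 kb (14.3%) were combined clusters that reached a little past a replicate's edge. The rest belonged to 521 combined clusters that lay wholly inside a long gap and overlapped neither replicate. On the 4 arms 2010 combined clusters overlapped neither replicate (28.7% of 7012).

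Such clusters were sparser in longer gaps. Their density was 19.5 per Mb in gaps of 50 to 75 kb, 19.4 in those of 75 to 100 kb, 11.2 in those of 100 to 150 kb, 8.67 in those of 150 to 200 kb and 4.58 in those of at least 200 kb. Over all long gaps it was 14.1 per Mb, against 34.3 in gaps of 10 to 50 kb and 37.7 in gaps under 10 kb. At least 1 was present in 239 of the 387 long gaps (61.8%), against 47.2% of gaps of 10 to 50 kb and 23.4% of all gaps. Long gaps offer more room, so these shares are not matched for length. In 106 long gaps such clusters, with the overhanging ones, left no free stretch of 50 kb. By arm the density in long gaps ran from 13.6 per Mb on 2L and 13.8 on 3L to 14.4 on both X and 3R.

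Their density was highest just inside the edges. It was 41.3 per Mb in the first kb inside an edge, 25.8 in the next, 18.1 between 2 and 5 kb, 19.6 between 5 and 10 kb, 15.2 between 10 and 25 kb and 9.87 farther in. The last zone weighs the longer gaps, which held fewer such clusters per Mb, more heavily. Over all long gaps, 56.4% of these clusters lay in the outer part of their gap, nearer to an edge than to the middle, and their median distance from an edge was 17455 bp. Their median score was 0.44 and their median width 1279 bp, against 0.43 and 1325 bp for the 1489 combined clusters elsewhere that overlapped neither replicate. Within 3 Mb of a centromere end, long gaps held 6.35 per Mb, against 15.6 per Mb in long gaps beyond. Among gaps of at least 200 kb, 6 of the 9 in that zone held none, against 1 of the 8 beyond it. Long gaps in the zone were also longer, with a median of 101 kb against 77.55 kb beyond. The zone was not planned, and the share of it to which reads can be aligned uniquely is unknown.

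**Figure D5:**
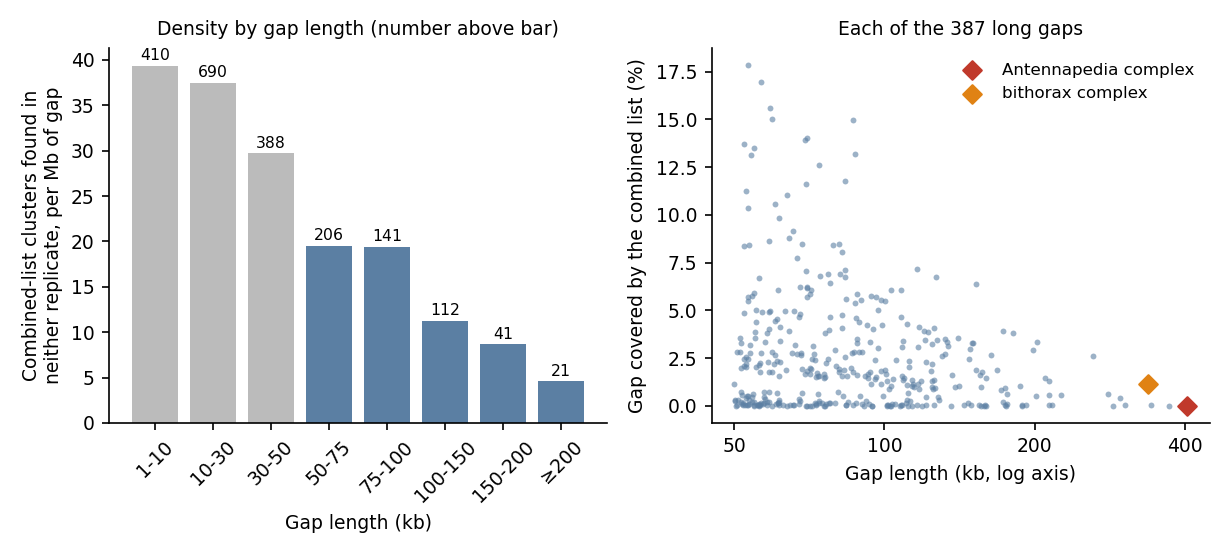
Left, combined-list clusters found in neither replicate per Mb of gap, by gap length (kb; blue bars are long gaps, grey bars shorter ones, the number of clusters above each bar). Right, share of each long gap covered by the combined list (%) against its length (kb, log axis). Density falls from 39.4 per Mb in gaps of 1 to 10 kb to 4.58 per Mb in gaps of at least 200 kb, and the homeotic gaps lie at 0.0025% and 1.13%.

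The gap over the Antennapedia complex held no combined cluster of its own, and 10 bp of an overhanging one (0.0025%). All 3 lists together left 404437 bp free, the longest such stretch on the 4 arms. The bithorax gap was covered to 1.13% and held 3 combined clusters of its own, all near an edge. The first, from 12479500 to 12480514, scored 0.46 and lay 0.67 kb from the left edge. The others, at 12807118 to 12808208 (score 0.39) and 12811706 to 12813372 (score 0.41), lay 7.98 and 2.82 kb from the right edge. Between them 326603 bp, from 12480515 to 12807117, were free in all 3 lists, the fourth-longest such stretch. In the other long gaps the combined list covered a median of 1.67% (interquartile range 0.18 to 3.82%), and the longest stretch free in all 3 lists had a median of 60.6 kb. Combined coverage was below that over the Antennapedia complex in 17 of the 385 and below that over the bithorax complex in 156. Most of the 385 are far shorter, and coverage was lower in longer gaps. The 17 gaps of at least 200 kb, which include both homeotic gaps, were covered to 0.65% together. The bithorax gap lay above that value. No combined cluster of its own was held by 148 of the 387 long gaps (38.2%), while 10 of those 17 held at least 1.

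The long gaps with the largest share under combined clusters were mostly short ones. They lay on X at 11517768 to 11571056 (17.9% of 53.3 kb) and at 4990834 to 5047444 (16.9% of 56.6 kb), on 2L at 13580930 to 13640004 (15.6% of 59.1 kb), on 3L at 10220956 to 10280545 (15.0% of 59.6 kb), and on 3R at 21198599 to 21285114 (15.0% of 86.5 kb). They held 5 to 9 combined clusters each that neither replicate had listed. By contrast 16 long gaps had not 1 bp under the combined list.

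The pair of highest-scoring clusters in the whole combined list on these arms lay inside long gaps, and neither replicate had a cluster there. They were singled out after their values were seen. The first, on 2L at 12894012 to 12895012, was 1001 bp wide and scored 3.26, at 70.4 kb from the nearer edge of a gap of 150.3 kb (12823613 to 12973886). The second, on X at 196506 to 197544, was 1039 bp wide and scored 2.45, at 6.26 kb from the nearer edge of a gap of 174 kb (190244 to 364370). The next highest score of such a cluster in a long gap was 0.94, which ranked 1382 in the combined list. The highest score of a combined cluster that overlapped a replicate cluster was 2.18.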

How the data were processed

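Per the submitters' processing notes, Bowtie 0.12.7 aligned the reads. Per the file headers, coordinates are those of FlyBase release r5. The authors deposited lists of significantly enriched regions with a start, an end and a score, 1 list for each of the 2 ChIP samples and 1 for the replicates combined. Neither labels nor headers name the caller, its threshold, the unit of the score or how replicates were combined, so scores are compared only by size. Inputs enter only through those calls.

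Clusters of both replicates on 2L, 3L, 3R and X were joined where they overlapped by at least 1 bp or touched, and gaps of at least 50 kb between neighbours were kept. Stretches at arm ends were left out. Gap finding was tested on simulated data. No statistical test was run, because the gaps were chosen by these values. Regions were named by size, nearness to the limit, combined coverage, a split by the other replicate, or as homeotic. Members and lists were chosen with earlier results of these data known. A gene table of release 6 gave names and order only; genes per gap and sequences were not analysed here. Python 3.11.15, pandas 2.3.3, NumPy 2.4.6 and Matplotlib 3.10.9 were used.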

Additional observations from a re-analysis of the deposited data

How the results depend on the processing

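No paired analysis was possible because only ChIP lists were analysed, with nothing measured in the inputs to set against them. Alternatives for neighbouring long gaps and bounding clusters, and single-replicate gaps for combined coverage, were added after the data were seen; genes and sequences were not run. The cause of a shift was not tested beyond what each setting does by construction, and unknown depth limits all calls. The number of long gaps was 722 with a limit of 30 kb and 129 with 100 kb, and stayed within 1.5 times 387 in the other settings (298 to 530). Their share of the arms was 42.9 to 43.3% with 1 replicate left out, 50.2% from sequence enriched in both replicates, 49.6% when single-replicate clusters ended no gap, 63.4% with clusters at or above the median score, 26.9% with the combined list alone and 26.9% with all 3 lists, and 51.2% and 19.7% with limits of 30 and 100 kb. The share of long-gap length on X was 23.8 to 25.9% with 1 replicate left out, 19.9% with clusters at or above the median score and 23.8% with 30 kb. The Antennapedia gap measured 404.4 to 404.9 kb with 1 replicate left out and 404.9 kb from shared sequence. The bithorax gap measured 337.5 to 337.6 kb with 1 replicate left out, 337.7 kb from shared sequence, 337.5 kb with clusters at or above the median score, and 326.6 kb with the combined list alone or all 3 lists. Combined coverage of long gaps was 3.51 to 3.89% with 1 replicate left out, 2.99% and 1.40% with 30 and 100 kb, 0.465% with combined clusters at or above the median score and 1.89% with gaps trimmed by 2 kb. Long gaps next to another made up 26.2 to 29.5% with 1 replicate left out, 36.6% with 30 kb and 9.30% with 100 kb. Bounding clusters in both replicates made up 83.8 to 85.2%, 71.9% and 76.2% under the same settings. With 1 replicate left out, each bounding cluster needs a partner in the other list only, so that range is not comparable with 74.0%. The other replicate covered 1.27% and 0.586% of gaps from replicate 1 with 30 and 100 kb, and 1.22% and 0.719% of gaps from replicate 2.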
